A study of Mus musculus with 12 samples.

Results

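Trophoblast transcription factors are the DNA-binding proteins that set up and maintain the outer lineage of the early mouse embryo, from which the placenta is built. The 7 genes examined here, Cdx2, Elf5, Tfap2c, Tfap2a, Hand1, Gata2 and Gata3, were taken by symbol from a table of 23412 genes, and all 7 were present in it. The counts come from bulk RNA-Seq of poly-A RNA from mouse embryonic stem cells (mESCs) of the established male line v6.5, grown on gelatin-coated plates in medium with serum and LIF, a cytokine that keeps the cells undifferentiated. There were 4 genotypes with 3 biological replicates each, 12 libraries in all. WT mESCs were the unedited line. Hmgn1-/- mESCs had lost 1 bp from exon 3 on both alleles of Hmgn1, and Hmgn2-/- mESCs had gained 1 bp in exon 4 on both alleles of Hmgn2. Hmgn1-/-Hmgn2-/- mESCs carried both edits and were derived from the Hmgn2-/- line by a further edit of Hmgn1. HMGN1 and HMGN2 are small proteins that bind nucleosomes. Each knockout line was expanded from an individual edited cell, so genotype and clone cannot be told apart, and replicates measure the spread between cultures of a clone.

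In the embryo, the earliest choice of fate separates the trophectoderm, which implants and forms placental trophoblast, from the inner cell mass, the source of embryonic stem cells. CDX2 and GATA3 act early in that choice downstream of TEAD4 and YAP, ELF5 and TFAP2C act in the self-renewing trophoblast stem cell, and HAND1 drives the formation of trophoblast giant cells, in which GATA2 and GATA3 also activate placental hormone genes. Several of the genes work elsewhere too: TFAP2C is found in germ cells and naive stem cells, TFAP2A in surface ectoderm and neural crest, and HAND1 in extraembryonic and cardiac mesoderm.

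Library totals were 17614490 to 31448468 counts in WT mESCs, 21059862 to 25953244 in the Hmgn1-/- line, 17337908 to 26486535 in the Hmgn2-/- line and 22151507 to 31005479 in the Hmgn1-/-Hmgn2-/- line. Levels are given as CPM, counts relative to library size, after scaling by the trimmed mean of M values (TMM-scaled CPM). The targeted genes were looked at first. Hmgn1 had 662, 600 and 614 TMM-scaled CPM in the WT libraries, 138, 139 and 141 in the Hmgn1-/- line, 545, 556 and 640 in the Hmgn2-/- line and 21.5, 19.9 and 21.4 in the Hmgn1-/-Hmgn2-/- line. Hmgn2 had 137, 123 and 120 in WT mESCs, 105, 113 and 109 in the Hmgn1-/- line, 50.7, 54.5 and 53.7 in the Hmgn2-/- line and 53.8, 50.5 and 54.2 in the Hmgn1-/-Hmgn2-/- line. The RNA of each edited gene was thus lower in every library labelled as its knockout than in any WT library. Some libraries stood apart from their own group. Replicate 3 of Hmgn2-/- mESCs differed most from its 2 partners, with a chi-square over degrees of freedom of 43.2 and 24.4, where 9.325 separated the partners, and WT replicate 1 differed from replicates 2 and 3 by 13.1 and 13.9, where those 2 differed by 3.78. Values without these libraries are given below.

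All coordinates are on GRCm38, also called mm10, from GENCODE release 21 for the mouse. Cdx2 lies on the minus strand at chr5:147300805-147307270, Elf5 on the plus strand at chr2:103411688-103450989 and Tfap2c on the plus strand at chr2:172549593-172558622. Tfap2a lies on the minus strand at chr13:40715302-40738376, Hand1 on the minus strand at chr11:57828705-57832818, Gata2 on the plus strand at chr6:88193891-88207032 and Gata3 on the minus strand at chr2:9857078-9890034. All 7 are annotated as protein-coding. Elf5, Tfap2c and Gata3 share chromosome 2, at positions far from each other, and each of the others has a chromosome to itself. Tfap2a overlaps 3 antisense genes, with 265, 380 and 73 exonic bases in common, and none of the 3 was in the count table. Gata3 shares 155 exonic bases with an antisense gene outside the table and 77 with 9230102O04Rik on its own strand, which had 1 count over the 12 libraries. Whether counting used the strand is not given in the sources used here, so reads of antisense partners could be part of the values of Tfap2a and Gata3.

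RefSeq promoter windows of GRCm38.p6, from 250 bases before to 50 bases after a transcript start, were held for 5 of the 7 genes, Cdx2, Elf5, Tfap2a, Gata2 and Gata3. They are shown for 2 of the genes whose RNA was lower in the knockouts, Tfap2a with 2 starts and Gata3, and for 2 whose RNA was not past the threshold, Cdx2 and Gata2. Each is written 5′ to 3′ in lower case on the gene's own strand, and capitals mark matches to GCCNNNGGC, a motif of TFAP2 proteins, or to GGAATG, a motif of TEAD proteins, on either strand. AGATAA and TGATAA, motifs of GATA factors, were also searched on both strands.
Tfap2a, chr13:40734871-40735170, minus strand: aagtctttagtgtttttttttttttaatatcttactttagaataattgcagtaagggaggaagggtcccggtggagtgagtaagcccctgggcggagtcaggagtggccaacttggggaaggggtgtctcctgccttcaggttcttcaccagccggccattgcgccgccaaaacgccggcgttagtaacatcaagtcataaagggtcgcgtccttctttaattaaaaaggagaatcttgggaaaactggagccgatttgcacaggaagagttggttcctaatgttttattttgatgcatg
Tfap2a, chr13:40733746-40734045, minus strand: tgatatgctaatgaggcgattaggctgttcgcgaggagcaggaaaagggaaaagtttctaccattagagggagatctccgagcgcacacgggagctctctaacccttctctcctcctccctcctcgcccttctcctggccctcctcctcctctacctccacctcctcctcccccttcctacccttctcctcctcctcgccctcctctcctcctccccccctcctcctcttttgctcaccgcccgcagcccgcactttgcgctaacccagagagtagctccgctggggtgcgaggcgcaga
Gata3, chr2:9878551-9878850, minus strand: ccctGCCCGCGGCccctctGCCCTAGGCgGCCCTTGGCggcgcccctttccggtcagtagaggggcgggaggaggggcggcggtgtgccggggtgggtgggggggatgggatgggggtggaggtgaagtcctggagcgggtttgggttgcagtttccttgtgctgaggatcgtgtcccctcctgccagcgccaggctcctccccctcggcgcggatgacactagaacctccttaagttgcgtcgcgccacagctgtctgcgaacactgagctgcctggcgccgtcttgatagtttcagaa
Cdx2, chr5:147307200-147307499, minus strand: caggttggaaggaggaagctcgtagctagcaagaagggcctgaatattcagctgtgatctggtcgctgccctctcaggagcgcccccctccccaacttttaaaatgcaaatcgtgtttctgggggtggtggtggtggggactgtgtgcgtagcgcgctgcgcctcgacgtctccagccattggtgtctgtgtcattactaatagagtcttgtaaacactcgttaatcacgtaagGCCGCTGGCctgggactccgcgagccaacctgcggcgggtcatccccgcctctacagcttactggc
Gata2, chr6:88198414-88198713, plus strand: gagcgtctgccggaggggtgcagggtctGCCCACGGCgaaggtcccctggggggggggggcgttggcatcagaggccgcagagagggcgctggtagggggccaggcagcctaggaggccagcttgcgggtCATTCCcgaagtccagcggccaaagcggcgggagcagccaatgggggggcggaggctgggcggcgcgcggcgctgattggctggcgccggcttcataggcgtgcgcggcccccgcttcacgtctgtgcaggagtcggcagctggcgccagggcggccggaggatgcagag

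The Gata3 window held 3 TFAP2 matches, which began 246, 231 and 221 bases before the start. The Cdx2 window held 1, which began 16 bases before the start, and this Gata2 window held 1 TFAP2 and 1 TEAD match, at 222 and 120 bases before it. The other Gata2 window, chr6:88193641-88193940 on the plus strand, held no match and 32 CG, and of the 2 Elf5 windows, with 3 and 10 CG, the first held a TEAD match 173 bases before its start and the second none. Neither Tfap2a window held a match to any of the motifs, and none of the 8 windows of the 5 genes held a GATA match. Of all 32851 promoter windows, 16.6% held a TFAP2 match, 14.7% a TEAD match and 18.6% a GATA match. The windows shown held more CG dinucleotides than most, with 22 in Gata3, 18 in Cdx2, 29 in this Gata2 window and 11 and 15 in the Tfap2a windows, against a median of 7 over all windows. A match is only a match of letters.

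The 3 genes whose RNA fell were Hand1, Gata3 and Tfap2a, and each of them fell in all 3 knockout lines. Hand1, the bHLH factor of trophoblast giant cells, had 133, 85 and 183 counts in WT mESCs, 20, 24 and 17 in the Hmgn1-/- line, 43, 26 and 23 in the Hmgn2-/- line and 38, 25 and 31 in the Hmgn1-/-Hmgn2-/- line. As TMM-scaled CPM these were 4.16, 4.81 and 6.35 in WT mESCs, 0.767, 1.15 and 0.779 in the Hmgn1-/- line, 1.65, 0.984 and 1.37 in the Hmgn2-/- line and 1.22, 1.13 and 1.18 in the Hmgn1-/-Hmgn2-/- line. Every WT library was above every knockout library, and the knockout libraries lay among each other. The mean level was 5.11 ± 1.13 (SD, n = 3) in WT mESCs, which was 5.69 times that of Hmgn1-/- mESCs, 3.83 times that of Hmgn2-/- mESCs and 4.35 times that of Hmgn1-/-Hmgn2-/- mESCs. The log2 fold change (FC) against WT mESCs was −2.51 (standard error 0.249, adjusted p = 6.38e-06) in the Hmgn1-/- line, −1.93 (0.250, adjusted p = 0.000368) in the Hmgn2-/- line and −2.11 (0.217, adjusted p = 8.65e-06) in the Hmgn1-/-Hmgn2-/- line, where p comes from the quasi-likelihood test of edgeR, adjusted over all genes by the Benjamini-Hochberg method. Without WT replicate 1 the values of Hand1 were −2.66, −2.07 and −2.26 in that order, and without Hmgn2-/- replicate 3 its value in the Hmgn2-/- line was −1.95. The threshold was a log2 FC of 1 or more in size together with an adjusted p below 0.01. In bulk RNA, fewer cells of a type and less RNA per cell cannot be told apart.

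Gata3, a zinc finger factor of the trophectoderm, had 64, 96 and 142 counts in WT mESCs, 9, 1 and 20 in the Hmgn1-/- line, 3, 12 and 10 in the Hmgn2-/- line and 14, 11 and 14 in the Hmgn1-/-Hmgn2-/- line. As TMM-scaled CPM these were 2.00, 5.43 and 4.93 in WT mESCs, 0.345, 0.0477 and 0.917 in the Hmgn1-/- line, 0.115, 0.454 and 0.595 in the Hmgn2-/- line and 0.448, 0.497 and 0.531 in the Hmgn1-/-Hmgn2-/- line. WT replicate 1 was the lowest WT library by a wide margin and still above every knockout library. The single knockouts spread widely at these few counts, and the Hmgn1-/-Hmgn2-/- libraries lay close together. The log2 FC against WT mESCs was −3.19 (standard error 0.520, edgeR adjusted p = 0.000417) in the Hmgn1-/- line, −3.44 (0.503, adjusted p = 0.000793) in the Hmgn2-/- line and −3.03 (0.380, adjusted p = 4.84e-05) in the Hmgn1-/-Hmgn2-/- line, the largest falls among the 6 members tested. Without WT replicate 1 these were −3.55, −3.80 and −3.38, and without Hmgn2-/- replicate 3 the value of Gata3 in the Hmgn2-/- line was −3.79. The widest move came without Hmgn1-/- replicate 3, where the log2 FC in the Hmgn1-/- line was −4.23 (edgeR adjusted p = 0.000585). The smallest falls with a library left out were −2.71 in the Hmgn1-/- line (without its replicate 2), −2.96 in the Hmgn2-/- line (without its replicate 1) and −2.80 in the Hmgn1-/-Hmgn2-/- line (without WT replicate 2), and the highest adjusted p over these fits was 0.00654, in the Hmgn1-/- line without its replicate 1.

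Tfap2a, the AP-2 factor of surface ectoderm and neural crest that is also made in trophoblast, had 78, 48 and 83 counts in WT mESCs, 33, 28 and 30 in the Hmgn1-/- line, 29, 29 and 18 in the Hmgn2-/- line and 37, 19 and 29 in the Hmgn1-/-Hmgn2-/- line. As TMM-scaled CPM these were 2.44, 2.71 and 2.88 in WT mESCs, 1.27, 1.34 and 1.38 in the Hmgn1-/- line, 1.11, 1.10 and 1.07 in the Hmgn2-/- line and 1.18, 0.859 and 1.10 in the Hmgn1-/-Hmgn2-/- line. The libraries of each genotype lay close together, and no knockout library reached the WT range. Its level in the knockouts was 49.5%, 40.8% and 39.1% of the WT mean in Hmgn1-/-, Hmgn2-/- and Hmgn1-/-Hmgn2-/- mESCs. The log2 FC against WT mESCs was −1.01 (standard error 0.218, edgeR adjusted p = 0.00332) in the Hmgn1-/- line, −1.27 (0.218, adjusted p = 0.00207) in the Hmgn2-/- line and −1.33 (0.231, adjusted p = 0.000671) in the Hmgn1-/-Hmgn2-/- line. The value in the Hmgn1-/- line sat at the fold limit, and the call in the Hmgn1-/- line was lost without WT replicate 2 (log2 FC −0.9993, edgeR adjusted p = 0.0126), WT replicate 3 (−0.95, 0.0182) or Hmgn1-/- replicate 1 (−0.97, 0.0187), 2 (−1.02, 0.0139) or 3 (−1.04, 0.0118). The call of Tfap2a in the Hmgn2-/- line was lost without WT replicate 2 (−1.27, edgeR adjusted p = 0.0108), WT replicate 3 (−1.22, 0.0131) or Hmgn2-/- replicate 2 (−1.27, 0.0137), and the direction was the same in each of these fits. Without WT replicate 1 the log2 FC of Tfap2a was −1.08, −1.35 and −1.40 in Hmgn1-/-, Hmgn2-/- and Hmgn1-/-Hmgn2-/- mESCs, and without Hmgn2-/- replicate 3 it was −1.26 in the Hmgn2-/- line.

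**Figure D1:**
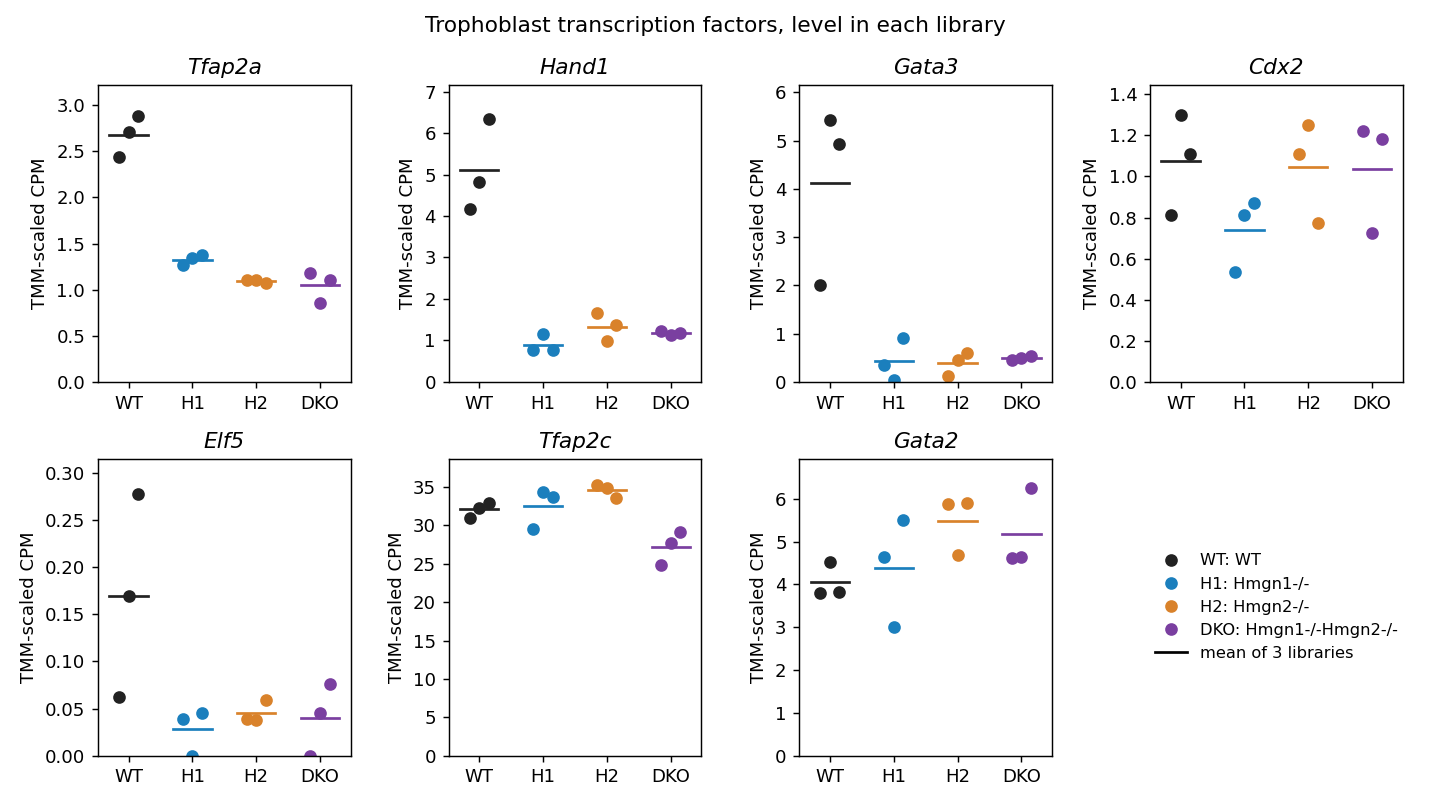
Level of each of the 7 genes in each library as TMM-scaled CPM, with a point per library and a line at the mean of 3 libraries, for WT, Hmgn1-/- (H1), Hmgn2-/- (H2) and Hmgn1-/-Hmgn2-/- (DKO) mESCs. For Tfap2a, Hand1 and Gata3 the WT points lie above all knockout points, while the points of Cdx2 overlap, those of Gata2 lie above WT in the Hmgn2-/- and Hmgn1-/-Hmgn2-/- lines, and those of Tfap2c lie slightly above WT in the Hmgn2-/- line and below it in the Hmgn1-/-Hmgn2-/- line.

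The other members did not pass the threshold in any knockout. Cdx2, the homeobox factor that stands near the top of the trophectoderm program, had 26, 23 and 32 counts in WT mESCs, 14, 17 and 19 in the Hmgn1-/- line, 29, 33 and 13 in the Hmgn2-/- line and 38, 16 and 31 in the Hmgn1-/-Hmgn2-/- line, and its levels overlapped with WT mESCs in every comparison. Its log2 FC was −0.52 ± 0.325 (SE, edgeR adjusted p = 0.266) in the Hmgn1-/- line, 0.03 ± 0.299 in the Hmgn2-/- line and 0.01 ± 0.301 in the Hmgn1-/-Hmgn2-/- line. Gata2, the GATA factor of trophoblast giant cells and blood progenitors, had 3.81, 4.52 and 3.82 TMM-scaled CPM in WT mESCs, 4.64, 3.01 and 5.50 in the Hmgn1-/- line, 5.87, 4.69 and 5.89 in the Hmgn2-/- line and 4.61, 4.65 and 6.26 in the Hmgn1-/-Hmgn2-/- line. Its libraries lay above all WT libraries in Hmgn2-/- and Hmgn1-/-Hmgn2-/- mESCs, by log2 FCs of 0.45 ± 0.169 (SE, edgeR adjusted p = 0.0909) and 0.37 ± 0.171 (adjusted p = 0.128), and its values overlapped with WT mESCs in the Hmgn1-/- line at 0.13 ± 0.207. The GATA factors thus did not move together: the fall of Gata3 stood beside values of Gata2 that were level or higher.

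Tfap2c, the AP-2 factor shared by trophoblast stem cells, germ cells and naive stem cells, had 31.05, 32.35 and 32.94 TMM-scaled CPM in WT mESCs, 29.5, 34.3 and 33.7 in the Hmgn1-/- line, 35.3, 34.9 and 33.5 in the Hmgn2-/- line and 24.9, 27.7 and 29.1 in the Hmgn1-/-Hmgn2-/- line. The Hmgn1-/-Hmgn2-/- libraries were the lowest of the 12. The log2 FC of Tfap2c in the Hmgn1-/-Hmgn2-/- line was −0.23 ± 0.0827 (SE) against WT mESCs, with an edgeR adjusted p of 0.0471, and in the single knockouts it was 0.02 ± 0.0818 and 0.12 ± 0.0851. All Hmgn2-/- libraries lay above all WT libraries for this gene. Elf5, the ETS factor of trophoblast stem cells, was near the limit of detection. It had 2, 3 and 8 counts in WT mESCs, 1, 0 and 1 in the Hmgn1-/- line, 1, 1 and 1 in the Hmgn2-/- line and 0, 1 and 2 in the Hmgn1-/-Hmgn2-/- line, and the filter on low counts removed it from every comparison. The summed rate of Elf5 in WT mESCs was 5.70 times that of Hmgn1-/- mESCs (95% exact conditional interval 1.29 to 52.0, for counting error only), 3.83 times that of Hmgn2-/- mESCs (1.05 to 20.9) and 4.40 times that of Hmgn1-/-Hmgn2-/- mESCs (1.21 to 24.1). WT replicate 3 held 8 of the 13 WT counts. A fit of edgeR without the filter, which takes the spread between replicates into account, gave Elf5 log2 FCs of −2.33, −1.82 and −2.00 (adjusted p = 0.141, 0.267 and 0.183), so a fall of Elf5 is not established.

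In each comparison with WT mESCs, 3 of the 6 members tested were past the threshold and lower, and 0 were past it and higher. Over all genes tested, 5.08% were past the threshold and lower in the Hmgn1-/- line and 0.898% higher. In Hmgn2-/- mESCs the shares were 4.38% lower and 0.776% higher, and in the Hmgn1-/-Hmgn2-/- line 5.00% lower and 1.30% higher. At an unadjusted p under 0.05, edgeR placed 0, 1 and 1 members higher in Hmgn1-/-, Hmgn2-/- and Hmgn1-/-Hmgn2-/- mESCs, the 1 being Gata2, where 18.8%, 14.5% and 18.8% of all genes tested were, and DESeq2 called the same 3 members as edgeR in each comparison. Every knockout library lay below every WT library for 3 of the 6 members tested in the Hmgn1-/- line, where 21.3% of all genes tested did so, for 3 in the Hmgn2-/- line (19.2% of all genes) and for 4 in the Hmgn1-/-Hmgn2-/- line (21.7% of all genes), Tfap2c being the added member. In the other direction, every knockout library lay above every WT library for 0 of the 6 in the Hmgn1-/- line, for Gata2 and Tfap2c in the Hmgn2-/- line and for Gata2 in the Hmgn1-/-Hmgn2-/- line, beside 20.7%, 16.6% and 20.7% of all genes tested. The median log2 FC of the 6 members was −0.76, −0.62 and −0.78 in Hmgn1-/-, Hmgn2-/- and Hmgn1-/-Hmgn2-/- mESCs, beside medians over all genes tested of 0.00, 0.01 and 0.00. The 3 comparisons share the WT libraries, so their values are not independent of each other.

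**Figure D2:**
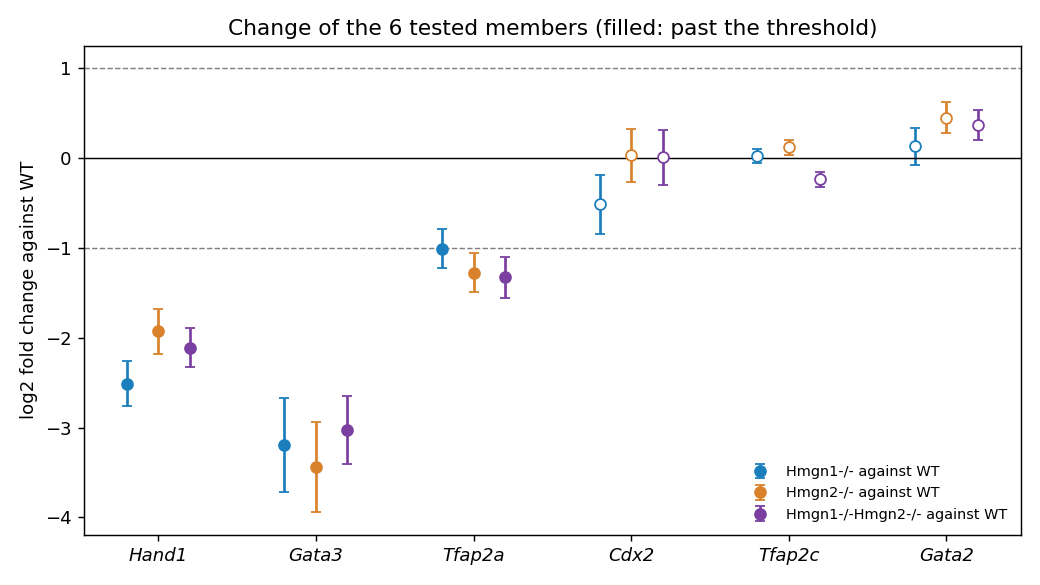
Log2 fold change of the 6 tested members against WT mESCs in Hmgn1-/-, Hmgn2-/- and Hmgn1-/-Hmgn2-/- mESCs, with bars of 1 standard error from edgeR; filled points were past the threshold and dashed lines mark a log2 fold change of 1 in size. Hand1, Gata3 and Tfap2a lie at or below −1 in all 3 comparisons, and the other members lie between the dashed lines.

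Per kilobase of exon, Tfap2c led the WT libraries at 8.73 RPKM, the TMM-scaled CPM divided by the summed exon length in kilobases. Hand1 followed at 2.56, Gata3 at 1.04, Gata2 at 0.751, Tfap2a at 0.546, Cdx2 at 0.475 and Elf5 at 0.0289 RPKM. The libraries of Gata3 and Gata2 overlapped, as did those of Tfap2a and Cdx2, and all other neighbours in this order were apart. Of 21737 genes with a length, Tfap2c ranked 4820th and Elf5 15064th by mean RPKM in WT mESCs. In all 3 knockouts the order of the means was Tfap2c, Gata2, Hand1, Cdx2, Tfap2a, Gata3 and Elf5, so that Gata3 went from place 3 to place 6 and Gata2 rose to place 2. In Hmgn1-/- mESCs the libraries of Gata2 and Hand1, of Hand1 and Cdx2 and of Cdx2 and Tfap2a overlapped, in the Hmgn2-/- line only those of Hand1 and Cdx2 did, and in the Hmgn1-/-Hmgn2-/- line no neighbours did.

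The knockouts were then compared with each other. In these 3 comparisons, 0 of the 6 members tested were past the threshold by edgeR, and 0 by DESeq2. Of all genes tested, 0.176% were past it between Hmgn2-/- and Hmgn1-/- mESCs, 0.511% between Hmgn1-/-Hmgn2-/- and Hmgn1-/- mESCs and 0.0434% between Hmgn1-/-Hmgn2-/- and Hmgn2-/- mESCs. The 0.0434% was 6 genes, a count that ran from 1 to 12 with a library left out and was 32 with the replicate block. At an unadjusted p under 0.05 edgeR gave 0, 1 and 1 members, beside 3.20%, 9.53% and 4.44% of all genes tested. The 1 was Tfap2c, with log2 FCs of −0.26 ± 0.0870 (SE, adjusted p = 0.257) in Hmgn1-/-Hmgn2-/- against Hmgn1-/- mESCs and −0.35 ± 0.0874 (adjusted p = 0.327) against Hmgn2-/- mESCs. Between Hmgn1-/-Hmgn2-/- and Hmgn2-/- mESCs the log2 FC was −0.18 ± 0.258 for Hand1, 0.42 ± 0.489 for Gata3 and −0.05 ± 0.243 for Tfap2a, all 3 smaller than their standard errors. Between Hmgn2-/- and Hmgn1-/- mESCs, Hand1 differed by 0.58 ± 0.301 (edgeR adjusted p = 1.00). These genes had few counts in the knockouts, and a small difference between them could have been missed.

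Whether the double knockout equalled the sum of the single knockouts was tested as a contrast over all 12 libraries, on the log2 scale. The log2 FCs of the single knockouts added up to −4.44 for Hand1, −6.63 for Gata3 and −2.28 for Tfap2a, while Hmgn1-/-Hmgn2-/- mESCs gave −2.11, −3.03 and −1.33. The double knockout lay between the single knockouts for Hand1, above both for Gata3 and slightly below both for Tfap2a. These orders are not firm. Leaving out a library turned the sign of the difference from Hmgn2-/- mESCs for each of these genes, as given below. The departure from the sum was 2.34 ± 0.365 (SE, edgeR adjusted p = 0.000565) for Hand1, the only one of the 6 members past the threshold, where 3.48% of all 14323 genes tested were. It was 3.62 ± 0.902 for Gata3 (edgeR adjusted p = 0.0144) and 0.96 ± 0.295 for Tfap2a (adjusted p = 0.0431). Gata3 already had only 1 to 20 counts per library in the single knockouts. A further fall as large would have brought it to the floor of 3 counts or under, so its sum could hardly have been reached. The departure of Gata3 is limited by this under every setting. For Tfap2c the departure was negative, at −0.365 ± 0.116 (SE, edgeR adjusted p = 0.04985). With the replicate number as a block, Gata3 also passed the threshold in this contrast (3.61, edgeR adjusted p = 0.00283), and it did so without WT replicate 1 (3.97, adjusted p = 0.00374), without Hmgn1-/- replicate 3 (4.65, 0.00451) or without Hmgn2-/- replicate 3 (3.97, 0.00873).

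**Figure D3:**
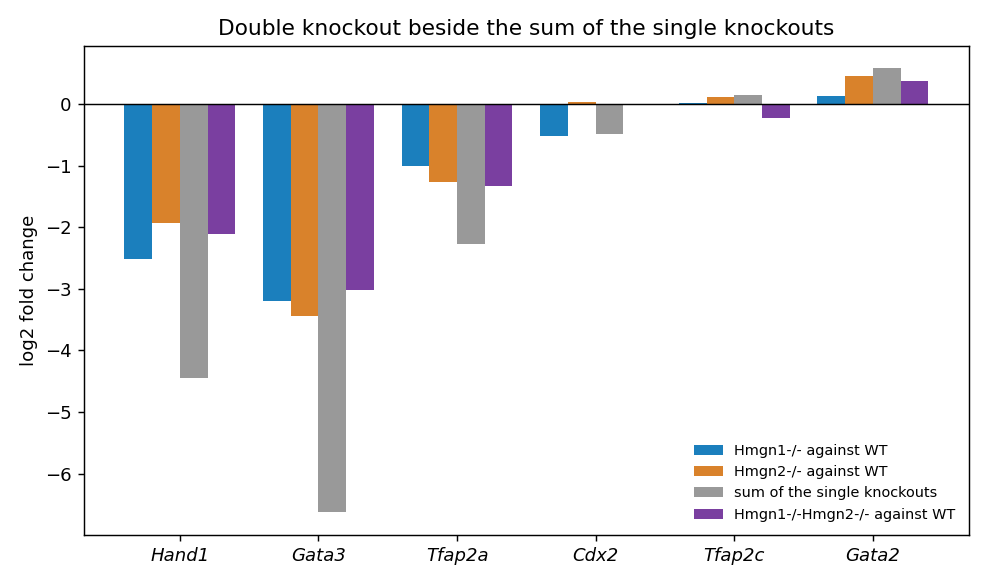
Log2 fold change against WT mESCs of the 6 tested members in each single knockout, the sum of those 2 values, and the value in the Hmgn1-/-Hmgn2-/- line, drawn as bars from 0 without error bars. For Hand1, Gata3 and Tfap2a the bar of the double knockout is close in height to the bars of the single knockouts and shorter than their sum.

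Paralogues of the members, the genes of the same families, were a list of 15, of which 9 were tested in each comparison. Gata4 and Gata6, which direct the primitive endoderm, the other extraembryonic lineage next to trophoblast, rose in all 3 knockouts, and the other 7 did not pass the threshold. Of all genes tested, 0.898%, 0.776% and 1.30% were past the threshold and higher in Hmgn1-/-, Hmgn2-/- and Hmgn1-/-Hmgn2-/- mESCs. Gata4 had 2.91, 2.21 and 2.95 TMM-scaled CPM in WT mESCs, 17.2, 16.1 and 14.8 in the Hmgn1-/- line, 22.9, 20.1 and 14.9 in the Hmgn2-/- line and 39.1, 36.2 and 33.8 in the Hmgn1-/-Hmgn2-/- line. Gata6 rose by log2 FCs of 2.44, 2.81 and 3.96 in Hmgn1-/-, Hmgn2-/- and Hmgn1-/-Hmgn2-/- mESCs (edgeR adjusted p = 1.01e-06, 2.25e-05 and 5.85e-10). Within the GATA family, Gata4 and Gata6 were therefore higher and Gata3 lower in the same libraries.

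Of 10 regulators that act upstream of the trophectoderm factors, the YAP, TEAD and Notch components with Klf5 and the Hippo kinases, all were tested and 1 passed the threshold. Lats2, a Hippo kinase that restrains YAP, had 3.94, 6.90 and 6.25 TMM-scaled CPM in WT mESCs and 2.49, 2.58 and 2.15 in the Hmgn1-/- line, a log2 FC of −1.22 (edgeR adjusted p = 0.000877). In Hmgn2-/- and Hmgn1-/-Hmgn2-/- mESCs its log2 FC was −0.90 (adjusted p = 0.0171) and −0.71 (adjusted p = 0.0157). In those 2 comparisons edgeR placed 0 of the 10 past the threshold, and DESeq2 called 0. At an unadjusted p under 0.05 there were 6, 3 and 5 of the 10 in Hmgn1-/-, Hmgn2-/- and Hmgn1-/-Hmgn2-/- mESCs, beside 38.7%, 31% and 38.9% of all genes tested. The directions were mixed: Lats1 (log2 FC 0.23, 0.16 and 0.38) and Klf5 (0.33, 0.26 and 0.45) had higher values in all 3 knockouts, and Amot went from −0.59 in the Hmgn1-/- line and −0.30 in the Hmgn2-/- line to 0.66 in the Hmgn1-/-Hmgn2-/- line, past the threshold in Hmgn1-/-Hmgn2-/- against Hmgn1-/- mESCs (1.25, edgeR adjusted p = 4.57e-05). The median log2 FC of the list was −0.14, −0.15 and −0.02 in Hmgn1-/-, Hmgn2-/- and Hmgn1-/-Hmgn2-/- mESCs.

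Among 20 other transcription factors of trophoblast, 19 were tested, and the same 3 genes fell in every knockout while 16 did not pass the threshold. DESeq2 called 4, 3 and 3, the added gene being Cited1 in the Hmgn1-/- line. Of all genes tested, 5.08%, 4.38% and 5.00% were past the threshold and lower in Hmgn1-/-, Hmgn2-/- and Hmgn1-/-Hmgn2-/- mESCs. At an unadjusted edgeR p under 0.05 there were 9, 10 and 9 of the 19, beside 38.7%, 31% and 38.9% of all genes tested. Ascl2, the bHLH factor of the spongiotrophoblast, had 12.6, 11.9 and 13.8 TMM-scaled CPM in WT mESCs, 3.41, 2.44 and 3.16 in the Hmgn1-/- line, 4.07, 4.05 and 4.10 in the Hmgn2-/- line and 3.91 to 4.11 in the Hmgn1-/-Hmgn2-/- line. Id2, an inhibitor of bHLH factors, fell by log2 FCs of −2.38, −2.32 and −2.48 in Hmgn1-/-, Hmgn2-/- and Hmgn1-/-Hmgn2-/- mESCs, and Grhl2, a grainyhead factor of epithelia, by −1.04, −1.19 and −1.19. Ascl2 and Hand1 are both bHLH factors of placental lineages, and both were lower in every knockout library than in any WT library. Taken line by line, 21.3%, 19.2% and 21.7% of all genes tested lay below WT mESCs in this way. The median log2 FC of this list was −0.26, −0.42 and −0.43.

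Trophoblast effector and placental genes numbered 26, of which 20, 20 and 21 were tested in Hmgn1-/-, Hmgn2-/- and Hmgn1-/-Hmgn2-/- mESCs. The same 8 fell in every knockout: the keratins Krt7, Krt8, Krt18 and Krt19 of simple epithelia, the homeobox genes Rhox6 and Rhox9, Dsp of the desmosome, and Lgals3, a galectin. DESeq2 called 9, 8 and 8, the added gene being Plac1 in the Hmgn1-/- line, which the filter of edgeR had removed. Of all genes tested, 5.08%, 4.38% and 5.00% were past the threshold and lower in these knockouts. At an unadjusted edgeR p under 0.05 there were 18, 14 and 17 genes of the list, in either direction, beside 38.7%, 31% and 38.9% of all genes tested. Krt7 had 13.4, 14.3 and 22.5 TMM-scaled CPM in WT mESCs and 1.42, 1.43 and 1.88 in the Hmgn1-/- line, a log2 FC of −3.41 (edgeR adjusted p = 1.59e-07), beside −2.53 in the Hmgn2-/- line and −3.62 in the Hmgn1-/-Hmgn2-/- line. Rhox6 fell by log2 FCs of −2.22, −2.29 and −2.63, and Dsp by −2.41, −2.01 and −2.02. Tpbpa, Prl3d1, Prl2c2, Hsd3b6 and Synb, which mark differentiated placental cells, had 0 counts in all 12 libraries. The keratins, Dsp and Lgals3 are made in many epithelia, so their fall does not mark trophoblast by itself. The median log2 FC of the list was −0.67, −0.60 and −0.61.

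Not every gene of the effector list was lower. Phlda2 (log2 FC 0.40, 0.37 and 0.28 in Hmgn1-/-, Hmgn2-/- and Hmgn1-/-Hmgn2-/- mESCs) and Ddah1 (0.46, 0.42 and 0.53) were higher in every knockout library than in any WT library, and Fabp3 was so in Hmgn1-/- and Hmgn1-/-Hmgn2-/- mESCs (0.36 and 0.50), all without reaching the fold limit. Peg10, the most abundant gene of the list, was lower in the Hmgn1-/- line (−0.90, edgeR adjusted p = 0.00110) and overlapped with WT mESCs in the other knockouts (0.21 and 0.44). It was past the threshold between knockouts, at 1.10 in Hmgn2-/- and 1.33 in Hmgn1-/-Hmgn2-/- against Hmgn1-/- mESCs (edgeR adjusted p = 0.00275 and 2.44e-08).

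Marker lists of other cell types moved with the genotype as well. The counts of markers stand beside 5.08%, 4.38% and 5.00% of all genes tested that were past the threshold and lower in Hmgn1-/-, Hmgn2-/- and Hmgn1-/-Hmgn2-/- mESCs. The shares that were higher were 0.898%, 0.776% and 1.30%. The summed level of the 10 trophoblast markers, a list that holds 5 of the 7 members, was 70.5, 79.6 and 89.9 TMM-scaled CPM in WT mESCs, 45.5, 49.7 and 51.3 in the Hmgn1-/- line, 56.1, 53.3 and 51.8 in the Hmgn2-/- line and 41.6, 45.8 and 45.9 in the Hmgn1-/-Hmgn2-/- line. Tfap2c was its most abundant gene, 3 of its genes fell in each knockout (Hand1, Gata3 and Krt7), and its marker Tpbpa was at 0. The largest part of the lower sum came from Krt7, a keratin that is not particular to trophoblast. Its mean was 16.7 in WT mESCs and 1.58, 2.89 and 1.35 in Hmgn1-/-, Hmgn2-/- and Hmgn1-/-Hmgn2-/- mESCs. The mean of Tfap2c was 32.1 in WT mESCs and 32.5, 34.6 and 27.2 in the same lines. The 10 primitive endoderm markers summed to 144, 186 and 189 in WT mESCs, 479, 393 and 402 in the Hmgn1-/- line, 556, 500 and 358 in the Hmgn2-/- line and 1049, 1033 and 955 in the Hmgn1-/-Hmgn2-/- line. In the 3 comparisons 7, 8 and 10 of them rose, and none was at 0. Lama1 had the highest mean in WT mESCs and both single knockouts. In the Hmgn1-/-Hmgn2-/- line Col4a1 had (379, against 336 for Lama1).

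The 8 markers of early mesoderm and streak, a lineage that also makes HAND1, summed to 7.25, 13.6 and 13.6 in WT mESCs, 6.29, 5.40 and 4.72 in the Hmgn1-/- line, 6.60, 5.71 and 5.41 in the Hmgn2-/- line and 6.72, 5.83 and 5.92 in the Hmgn1-/-Hmgn2-/- line. Brachyury (T) and Wnt3 fell in every knockout. Kdr was past the threshold in Hmgn1-/- and Hmgn1-/-Hmgn2-/- mESCs (log2 FC −1.74 and −1.66). It was lower without passing it in the Hmgn2-/- line (−2.07, edgeR adjusted p = 0.0144), where DESeq2 called 3 genes of the list and edgeR 2. Wnt3 was the most abundant over all libraries but in no single genotype, and none of the list was at 0. The highest mean was that of T in WT mESCs, Tbx6 in both single knockouts and Mixl1 in the Hmgn1-/-Hmgn2-/- line. The list did not move as a whole: Tbx6 (log2 FC 1.29, 1.18 and 1.10 in Hmgn1-/-, Hmgn2-/- and Hmgn1-/-Hmgn2-/- mESCs), Mixl1 (0.81, 0.75 and 0.90) and Mesp1 (1.31, 1.62 and 1.33) had higher values in all 3 knockouts without passing the threshold. WT replicate 1 was the lowest WT library in this list, as it was for Gata3 and Hand1.

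The 6 surface ectoderm markers summed to 15.7, 17.6 and 21.1 in WT mESCs and 20.1 to 26.1 over the knockout libraries, with Grhl3 the most abundant, Trp63 at or under 3 counts in every library, and Wnt6 lower in the single knockouts. The higher sum came from Grhl3, at a mean of 12.2 in WT mESCs and 21.7, 19.2 and 19.8 in Hmgn1-/-, Hmgn2-/- and Hmgn1-/-Hmgn2-/- mESCs, while Krt14 (log2 FC −1.35, −0.50 and −0.96) and Wnt6 (−1.24, −1.67 and −0.85) had lower values. The median log2 FC of the 3 markers tested was −1.24, −0.50 and −0.85. Of the 7 fibroblast markers, 3 were tested and fell in each knockout (Col1a1, Col1a2 and Thy1). Their list summed to 20.3, 16.4 and 20.1 in WT mESCs, 5.52, 5.20 and 5.50 in the Hmgn1-/- line, 5.29, 5.94 and 5.89 in the Hmgn2-/- line and 5.09, 7.86 and 6.60 in the Hmgn1-/-Hmgn2-/- line, with Thy1 the most abundant, Lum at 0 and Dcn at or under 3 counts in every library.

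The 6 markers of 2-cell-like cells summed to 20.98, 16.85 and 15.1 in WT mESCs, 1.15, 1.48 and 0.596 in the Hmgn1-/- line, 1.34, 0.908 and 1.07 in the Hmgn2-/- line and 6.30, 5.24 and 3.79 in the Hmgn1-/-Hmgn2-/- line. None was at 0 in all 12 libraries. Zscan4c had the highest mean except in the Hmgn1-/-Hmgn2-/- line, where Zscan4d had (2.17, against 1.90 for Zscan4c). Of those tested, 5 of 5, 6 of 6 and 5 of 6 fell. The 5 germ cell markers summed to 51.2 to 71.7 over all 12 libraries with none at 0, and 1 of them, Prdm1, fell in each knockout. The highest mean was that of Dppa3 in WT and Hmgn1-/- mESCs and of Dnd1 in Hmgn2-/- and Hmgn1-/-Hmgn2-/- mESCs. Dnd1 (log2 FC 0.65, 0.54 and 0.50) and Nanos3 (0.68, 0.66 and 0.43) were higher in every knockout library than in any WT library without passing the threshold, so this list moved in both directions. The 8 markers of pluripotent mESCs summed to 4528, 4755 and 4748 in WT mESCs and 4443 to 5149 over the knockout libraries, led by Pou5f1 with none at 0. None of the 8 was past the threshold by edgeR or DESeq2 in any comparison with WT mESCs, and 5, 4 and 4 had an unadjusted edgeR p under 0.05 in Hmgn1-/-, Hmgn2-/- and Hmgn1-/-Hmgn2-/- mESCs, beside 38.7%, 31% and 38.9% of all genes tested. Of these, Klf4 (log2 FC 0.93, 0.69 and 0.74), Esrrb (0.47, 0.32 and 0.28) and Utf1 (0.29, 0.27 and 0.21) were higher in every knockout, Nanog (−0.32, −0.50 and −0.45) was lower in every knockout, and Sox2 was higher in the Hmgn1-/- line (0.12). The part of these lists in the fall of Hand1, Gata3 and Tfap2a was not tested.

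**Figure D4:**
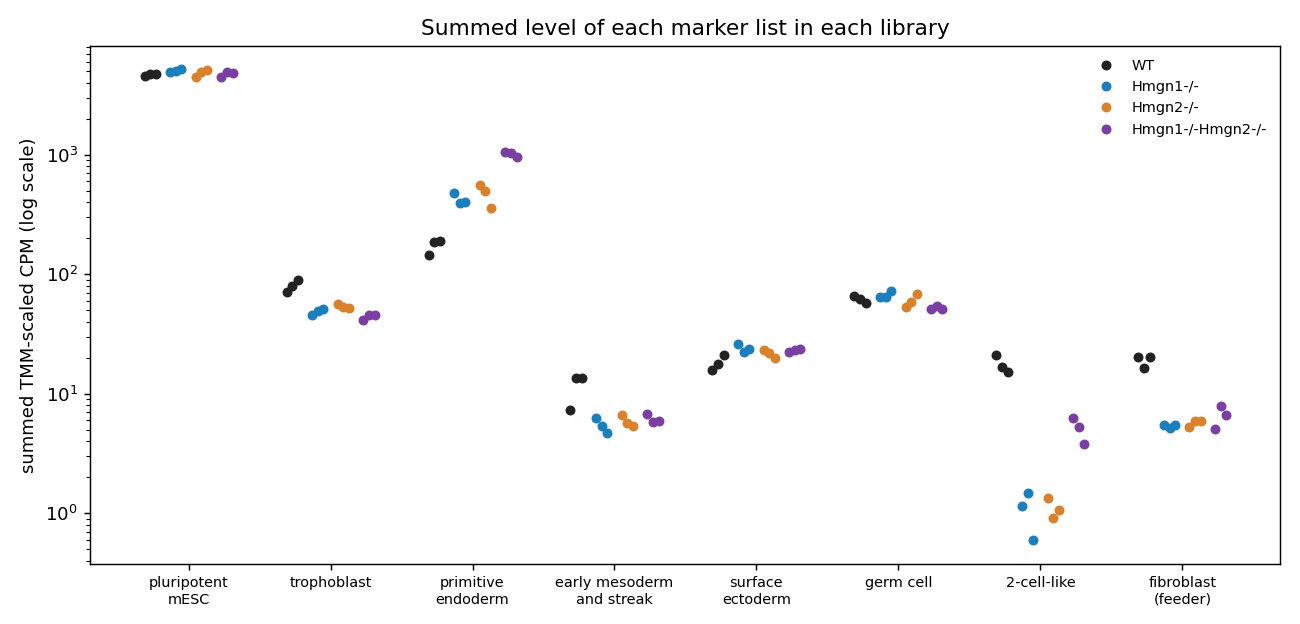
Summed TMM-scaled CPM of 8 marker lists in each of the 12 libraries, on a log scale, with a point per library and a colour per genotype. The trophoblast, streak, 2-cell-like and fibroblast lists are lower in all knockout libraries than in all WT libraries, the primitive endoderm list is higher, and the pluripotent list overlaps.

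Genes whose levels followed those of a member most closely were taken over the 12 libraries, among 11555 genes averaging 50 counts or more, by Pearson's r of log2(TMM-scaled CPM + 0.5). For Hand1 these were Osbpl10 (r = 0.988), the imprinted growth factor gene Igf2 (0.985) and Slc4a5 (0.979). Igf2 had mean levels of 72.4 TMM-scaled CPM in WT mESCs, 10.6 in the Hmgn1-/- line, 18.2 in the Hmgn2-/- line and 14.0 in the Hmgn1-/-Hmgn2-/- line. For Gata3 they were Vgll3 (0.974), Phf11d (0.973) and Agpat4 (0.971), and for Tfap2a Gbp2 (0.987), Nxt2 (0.986) and Stam2 (0.977). Vgll3 encodes a cofactor of TEAD proteins, and Gbp2 an interferon-inducible GTPase. The 12 libraries include the gap between WT and knockout mESCs, which enters every r given here.

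The members that did not pass the threshold had weaker partners. The highest r was 0.831 for Cdx2 (Mfap3l, with Gpsm1 at 0.808) and 0.859 for Gata2 (Elmod3, then Rnaset2b at 0.834 and 2010015L04Rik at 0.820). For Tfap2c the nearest were Sox11 and Hmgn1, both at 0.783, and Mgat5b at 0.739. Hmgn1 is itself the gene edited in 2 of the genotypes.

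The genes next to each member on its chromosome were also examined, 2 on each side that averaged 50 counts or more, 28 in all. By edgeR 0 of the 28 were past the threshold against WT mESCs in any knockout, and DESeq2 called 0. At an unadjusted p under 0.05 there were 7, 3 and 7 in Hmgn1-/-, Hmgn2-/- and Hmgn1-/-Hmgn2-/- mESCs, beside 38.7%, 31% and 38.9% of all genes tested. The nearest neighbour of Hand1, Sap30l at 18.5 kb, had log2 FCs of −0.24, −0.11 and −0.18 in Hmgn1-/-, Hmgn2-/- and Hmgn1-/-Hmgn2-/- mESCs. Taf3, 24.5 kb from Gata3, had 0.03, −0.02 and 0.03, and Gcnt2, 121 kb from Tfap2a, had 0.18, 0.09 and 0.09. Each of these values was smaller in size than that of the member beside it. Other neighbours moved more. The closest of the 28, Cat at 2.9 kb from Elf5, had −0.26, −0.34 and −0.49 (edgeR adjusted p = 0.00422, 0.0101 and 5.45e-05). Galnt10, 41.2 kb from Hand1, had −0.36, −0.34 and −0.28. The largest value in size was that of Gsx1, 109.9 kb from Cdx2, at 1.04 in Hmgn1-/-Hmgn2-/- mESCs (edgeR adjusted p = 0.0247).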

How the data were processed

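Bulk poly-A RNA-Seq of 12 libraries, 3 per genotype, was analysed from the counts the authors deposited, whole numbers of reads per gene without normalization. The submitters' processing notes name STAR, DESeq2 and mm10. The counting program, its annotation and its use of strand are not given in the sources used here. Groups and replicate numbers came from the sample labels.

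Each pair of genotypes was fitted on its 6 libraries with edgeR 4.0.16 in R 4.3.3 (TMM normalization, default filter on low counts, quasi-likelihood test, Benjamini-Hochberg adjustment over all genes tested). The threshold was an adjusted p under 0.01 and a log2 FC of at least 1 in size, and additivity was a contrast over all 12 libraries. The fits were tested on simulated data. A library with 3 counts or fewer was taken to be at the floor. RPKM used summed exon lengths of GENCODE release 21 for the mouse, found for 21737 of 23412 genes. Alternatives were DESeq2 1.42.0, RLE scaling, no filter, no fold limit, an adjusted p under 0.05, all 12 libraries in each fit, CPM over library totals, a block for the replicate number, and leaving out each library. The text names every member, those genes of the lists that passed the threshold against WT mESCs (not all with values), and the 3 genes nearest in pattern to each member with a mean of at least 10 counts, of which 1 is not reported here. Neighbouring genes were chosen by position after their values could be seen. The members and lists were chosen with earlier results of these data known. Promoters came from RefSeq (GRCm38.p6).

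Libraries with the same replicate number deviated together from their group means: 18 correlations between genotypes ran from 0.0714 to 0.615, 16 of them over 0.1, and 12 of 12 libraries correlated best with their own number. In 4 of the 6 pairs of genotypes every correlation was over 0.1. The pairing comes from these deviations and from no label. Within each genotype, no library was a copy of another by a chi-square comparison, and libraries of different genotypes were not compared in this way.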

Additional observations from a re-analysis of the deposited data

Results flagged for a closer look

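The change of Hand1 between lines with and without the Hmgn1 edit was not the same in the 2 backgrounds, by a test of the difference itself. Each knockout line was a clone, so an effect of Hmgn1 loss and a difference between clones cannot be told apart. The standard error measures the spread between cultures only. Hmgn1 RNA also differed between the edited lines, with means of 139.6 TMM-scaled CPM in Hmgn1-/- and 20.94 in Hmgn1-/-Hmgn2-/- mESCs. In the WT background Hand1 had a log2 FC of −2.51 (Hmgn1-/- against WT mESCs), and in the Hmgn2-/- background −0.18 (Hmgn1-/-Hmgn2-/- against Hmgn2-/- mESCs). The difference was 2.34 ± 0.365 (SE, edgeR adjusted p = 0.000565, 12 libraries), and its range was 2.14 to 2.55 over the fits that dropped a library. Hand1 was already low in Hmgn2-/- mESCs, at 26.1% of the WT mean, and its level in Hmgn1-/-Hmgn2-/- mESCs was 23.0% of it. Hand1 was not alone in this, since 3.48% of all genes tested were past the threshold in the same contrast. So were 9 of 21 trophoblast effector and placental genes, 3 of 19 other trophoblast transcription factors (Ascl2, Grhl2 and Id2), 2 of 10 upstream regulators, 3 of 3 fibroblast markers and 5 of 6 markers of 2-cell-like cells (median departure 6.58), all with a positive departure. The 2-cell-like markers were already near the floor in the single knockouts. Zscan4c had means of 0.458 and 0.442 TMM-scaled CPM in Hmgn1-/- and Hmgn2-/- mESCs, from 7.11 in WT mESCs. A further fall of that size could not have been counted, so a positive departure of such genes was all but fixed in advance. The streak, surface ectoderm and germ cell lists had 1 of 8, 1 of 3 and 1 of 5, also positive. The pluripotent list had 0 of 8, and 0 by DESeq2. At an unadjusted edgeR p under 0.05 the pluripotent list had 5, beside 25.9% of all genes tested. Of the primitive endoderm markers, 6 of 10 had a negative departure, as did 2 of 10 paralogues of the members (Gata4 and Gata6).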

How the results depend on the processing

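The calls of Hand1 and Gata3 in each comparison with WT mESCs held under DESeq2, RLE scaling, no filter, no fold limit, an adjusted p under 0.05, all 12 libraries and the replicate block, and with each library left out. Tfap2a held under the same settings but not with each library left out, as given with its values. In the additivity contrast the number of members past the threshold went from 1 to 2 with no filter, with an adjusted p under 0.05 and with the replicate block, Gata3 being the second, and ran from 1 to 2 with each library left out; the cause was not tested. The replicate block changed no other call of a member. Over all genes, dropping the fold limit raised the calls to 2412, 1400 and 2544 in Hmgn1-/-, Hmgn2-/- and Hmgn1-/-Hmgn2-/- mESCs from 832, 724 and 890, to 48 from 24 and 150 from 70 for Hmgn2-/- and Hmgn1-/-Hmgn2-/- against Hmgn1-/- mESCs, and to 905 from 499 for additivity, which an adjusted p under 0.05 raised to 798. Between Hmgn1-/-Hmgn2-/- and Hmgn2-/- mESCs the 6 calls became 29 with DESeq2, 21 with no filter, 24 at 0.05, 18 with all 12 libraries and 32 with the replicate block, and 1 to 12 with a library left out. Some values that passed the threshold in no fit of their comparison changed sign. The log2 FC of Cdx2 was −0.0014 in Hmgn2-/- mESCs with the replicate block and −0.0134 in Hmgn1-/-Hmgn2-/- mESCs with DESeq2. With each library left out, against WT mESCs, Cdx2 ran from −0.15 to 0.18 in Hmgn2-/- and −0.17 to 0.19 in Hmgn1-/-Hmgn2-/- mESCs, and in Hmgn1-/- mESCs Tfap2c from −0.0223 to 0.0897 and Gata2 from −0.0625 to 0.331. Against Hmgn1-/- mESCs, Gata3 ran from −0.74 to 0.79 in Hmgn2-/- and −0.32 to 1.20 in Hmgn1-/-Hmgn2-/- mESCs. In Hmgn1-/-Hmgn2-/- against Hmgn2-/- mESCs the ranges were −0.16 to 0.16 for Cdx2, −0.376 to 0.0332 for Hand1, −0.065 to 0.767 for Gata3, −0.240 to 0.00573 for Gata2 and −0.151 to 0.0592 for Tfap2a. Counts of 1 to 20 per library limit Gata3 in the single knockouts, and Elf5 is limited everywhere.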
